A study of Mus musculus with 5 samples.

Results

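Glucocorticoid signalling was followed through 8 transcripts in CD31-positive cells of mouse hearts. CD31, the product of Pecam1, marks endothelium but also platelets and part of the leukocytes. The transcripts were the receptor gene Nr3c1 and the responsive genes Fkbp5, Tsc22d3, Klf9, Sgk1, Dusp1, Errfi1 and Ddit4. They were taken by symbol from the deposited table, which held all 8 among its 17638 genes. Fkbp5 was chosen by its high normalised counts in Tbx1cko, so its difference is given as a description without a test. The other 7 were listed by symbol, with earlier results of these data known. The samples were 2 Tbx1cko libraries, from mice that the series describes as lacking Tbx1 in the endothelium, and 3 control libraries. All came from mice aged 2 months on a C57BL/6 background, 5 days after myocardial infarction. The labels name neither the driver of the deletion nor the alleles carried by controls. Nothing in them ties a library to an animal of its own. A p-value here covers the spread among 5 libraries, which may be technical in part. In Tbx1cko that spread includes the difference in sex-linked transcripts given below. Neither sex nor the hour of collection is given.

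Glucocorticoids, chiefly corticosterone in mice, enter cells and bind the receptor encoded by Nr3c1, which waits in the cytoplasm in a complex of heat shock proteins and co-chaperones. The bound receptor moves to the nucleus, raises transcription of some genes through glucocorticoid response elements, and holds down many inflammatory genes. Corticosterone is released in a daily rhythm and after stress, and vascular endothelium and leukocytes of the heart both carry the receptor.

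Polyadenylated RNA gave 14689782 to 18617284 reads per library over the genes of the table. Values are normalised read counts, that is, reads divided by a size factor of the library. Tbx1 itself had 18.3 and 17.3 normalised counts in Tbx1cko replicates 1 and 2, against 64.4, 72.7 and 69.6 in control replicates 1 to 3, so the libraries went with their labels. Control replicate 2 stood apart: across genes its log2 values correlated with those of the other libraries at 0.859 to 0.889, and its deviation from them followed transcript GC content (Spearman rho 0.801 across 13771 genes, which are not independent). Results are therefore given with and without it. The log2 difference between the groups followed GC content too, at rho -0.713 with all libraries and -0.305 without control replicate 2. Leaving that library out therefore lessened this dependence but did not remove it. Tbx1cko replicate 2 differed from the other libraries in sex-linked transcripts. Xist, the RNA of the inactive X chromosome, had 12968 normalised counts there, against 0 in Tbx1cko replicate 1 and 0 to 16.9 in controls, and the Y-linked gene Ddx3y had 3.06 there, 1929 in Tbx1cko replicate 1 and 43.2 to 2116 in controls. The endothelial markers (10 of 10) were abundant in all libraries. They summed to 163018 to 173101 in Tbx1cko and 175014 to 231506 in controls, without overlap. By gene 2 were positive and 8 negative in log2 difference, and 1 lay above and 5 below all controls. Macrophage markers (10 of 10) summed to 91559 to 94853 in Tbx1cko and 59326 to 94368 in controls, so macrophage transcripts were present as well. By gene 9 were positive and 1 negative, and 4 lay above and 0 below all controls. Of all genes tested, 14.2% lay above and 13.9% below. Without control replicate 2 the macrophage split was 6 and 4, and the endothelial split stayed at 2 and 8. In such a mixture fewer cells of a type and less RNA per cell cannot be told apart.

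The receptor transcript had similar values in 4 of the 5 libraries. Nr3c1 (ENSMUSG00000024431.15, protein-coding, chromosome 18, bases 39410545 to 39519421 of GRCm38, minus strand) had 2598 and 2776 normalised counts in Tbx1cko replicates 1 and 2, against 2943, 1385 and 2932 in control replicates 1 to 3. The value of control replicate 2 was the low one, at 0.472 times the mean of the other controls, and the groups overlapped. The means were 2687 ± 126 in Tbx1cko (SD, n = 2) and 2420 ± 896 in controls (SD, n = 3), with a log2 difference of 0.23 (SE 0.384) on log2(normalised count + 1) and a limma adjusted p of 0.809 over the 14339 genes tested. The 95% interval of that difference ran from -0.73 to 1.19. Without control replicate 2 the direction turned, to -0.13 with an interval from -0.38 to 0.12, and GC correction of all 5 libraries also gave a negative value, -0.39. At 42.2% GC, Nr3c1 was the member poorest in GC.

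Fkbp5 encodes a co-chaperone that joins the receptor complex and lowers its affinity for hormone, and the receptor in turn induces the gene, which makes it a widely used readout of receptor activity. The protein-coding gene (ENSMUSG00000024222.17) occupies bases 28399094 to 28517527 of chromosome 17, minus strand. It had 2085 and 2934 normalised counts in Tbx1cko replicates 1 and 2, against 1143, 903 and 1551 in control replicates 1 to 3. Both Tbx1cko values lay above every control value, and control replicate 3 was the control nearest to them. Control replicate 2 was the lowest library, at 0.671 times the mean of the other controls. The means were 2510 ± 600 in Tbx1cko (SD, n = 2) and 1199 ± 327 in controls (SD, n = 3), 2.09 times as high, and 1.86 times as high with control replicate 2 left out. The log2 difference of 1.08 was 0.89 without control replicate 2, 1.18 after GC correction, 0.83 without Tbx1cko replicate 2 and 1.33 without Tbx1cko replicate 1. These values chose the gene, and nothing is read from their size.

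Tsc22d3 encodes GILZ, a leucine zipper protein that binds NF-kappaB and AP-1 and is a standard glucocorticoid-induced gene. It occupies bases 140539528 to 140600659 of the X chromosome (ENSMUSG00000031431.13, protein-coding, minus strand). Its normalised counts were 3643 and 5436 in Tbx1cko replicates 1 and 2, against 2930, 2945 and 2892 in control replicates 1 to 3. The controls were nearly identical, control replicate 2 included, and the 2 Tbx1cko libraries lay above them and apart from each other. The means were 4539 ± 1268 in Tbx1cko (SD, n = 2) and 2922 ± 27.7 in controls (SD, n = 3), a log2 difference of 0.61 (SE 0.226, 95% interval 0.04 to 1.17). The unadjusted limma p was 0.0401 and the adjusted p 0.762, so the gene did not pass. Without control replicate 2 the difference was again 0.61 (adjusted p = 0.357 with limma, 0.361 with edgeR and 0.0537 with DESeq2), and over all alternatives the adjusted p ran from 0.0537 to 0.996. The size rested on Tbx1cko replicate 2: the difference was 0.32 without that library and 0.90 without Tbx1cko replicate 1. The X-linked gene was highest in the library that carried Xist, and the part of sex in this value was not tested.

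Fkbp5 and Tsc22d3 were the 2 members of 8 whose Tbx1cko values lay above all controls, where 14.2% of all genes tested did so, and Fkbp5 was chosen for it. No member lay below all controls, where 13.9% of genes did. Without control replicate 2 the same 2 members were higher (19.7% of all genes), and Nr3c1 and Errfi1 were lower (17.8% of all genes). Apart from Fkbp5, 0 of the 7 other members passed an adjusted p of 0.05 in limma with all libraries, where 0% of all genes passed. Of the 7, 1 gene, Tsc22d3, had an unadjusted p under 0.05, as did 1.74% of all genes. Without control replicate 2, 0 of the 7 passed in limma, where 0.0209% of all genes did, and 0 of the 7 passed in DESeq2, where 0.888% of the genes with an adjusted p were called.

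**Figure D1:**
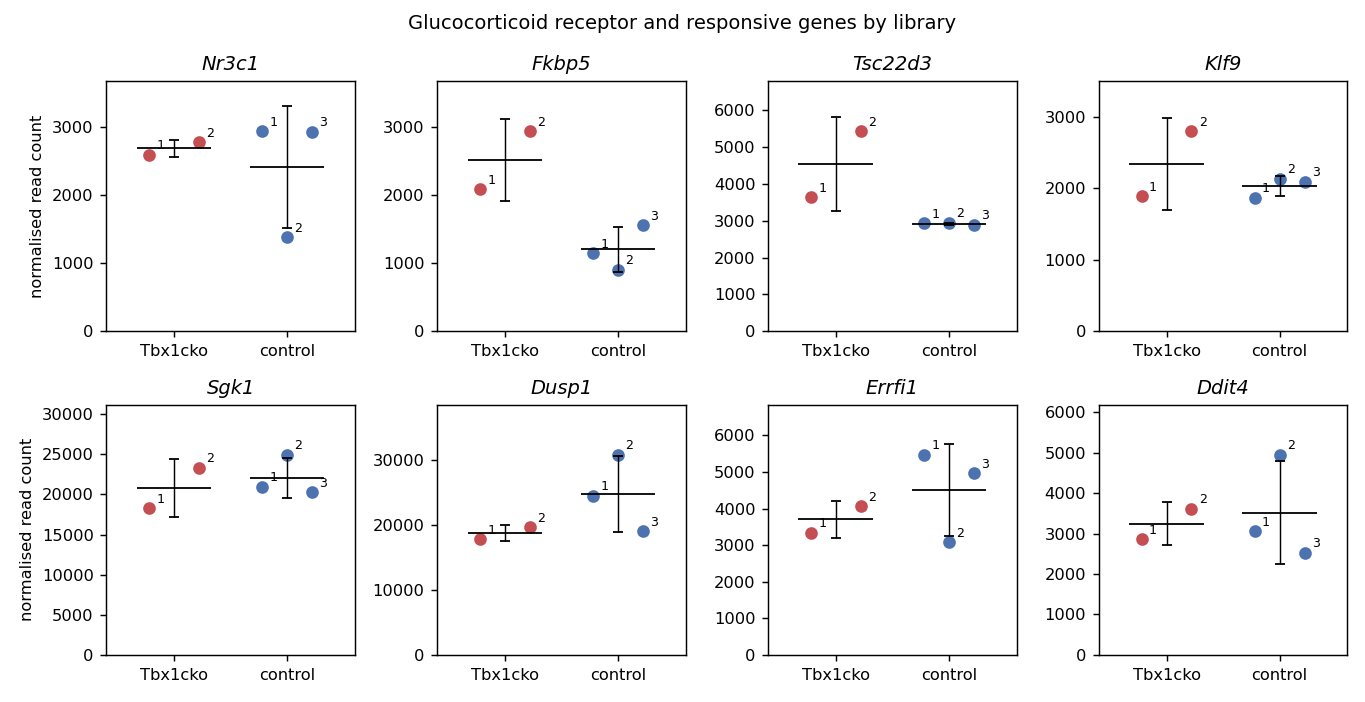
Normalised read counts (y axes, linear from 0) of the 8 genes in 2 Tbx1cko libraries (red, left) and 3 control libraries (blue, right); numbers are replicates, lines are means and bars SD. The Tbx1cko points lie above all control points for Fkbp5 and Tsc22d3. Control replicate 2 is the lowest point for Fkbp5, Nr3c1 and Errfi1 and the highest for Ddit4, Dusp1 and Sgk1.

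The upstream sequences of these 2 genes are shown because their Tbx1cko values were the ones clear of the controls. They come from RefSeq (GRCm38.p6), run 5′ to 3′ on the strand of the gene, and end at the base before an annotated start. That of Fkbp5 is chr17:28486150-28486399, minus strand, and that of Tsc22d3 is chrX:140548572-140548821, minus strand, the middle of 3 starts listed for that gene. Capitals mark matches to AGAACA, the hexamer of the glucocorticoid response element, or to TGACG, the pentamer of the cAMP response element, on either strand.
Fkbp5: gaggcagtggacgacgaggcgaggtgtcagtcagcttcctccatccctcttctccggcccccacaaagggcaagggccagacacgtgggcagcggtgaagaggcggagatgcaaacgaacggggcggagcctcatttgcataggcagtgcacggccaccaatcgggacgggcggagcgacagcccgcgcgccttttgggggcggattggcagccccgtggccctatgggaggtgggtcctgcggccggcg
Tsc22d3: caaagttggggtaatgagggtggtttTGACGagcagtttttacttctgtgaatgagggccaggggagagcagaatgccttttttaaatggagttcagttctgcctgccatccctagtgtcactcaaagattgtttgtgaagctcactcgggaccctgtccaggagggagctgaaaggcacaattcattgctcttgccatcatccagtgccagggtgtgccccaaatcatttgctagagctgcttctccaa
The Fkbp5 window held no match, and this Tsc22d3 window held a TGACG alone. Of the other 2 Tsc22d3 windows, 1 held an AGAACA. No match says only that these letters are not in this window.

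Klf9, a zinc finger transcription factor gene that glucocorticoids induce, occupies bases 23141226 to 23168134 of chromosome 19 (ENSMUSG00000033863.2, plus strand). It had 1889 and 2803 normalised counts in Tbx1cko replicates 1 and 2, against 1872, 2138 and 2096 in control replicates 1 to 3. Tbx1cko replicate 2 was the highest library, and Tbx1cko replicate 1 lay within the control range. The log2 difference was 0.18 (SE 0.236, 95% interval -0.41 to 0.77, limma adjusted p = 0.778), and without Tbx1cko replicate 2 it was -0.11.

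Sgk1 encodes a kinase that acts on ion channels and cell survival and is induced by both glucocorticoids and mineralocorticoids. It occupies bases 21882184 to 21999903 of chromosome 10 (ENSMUSG00000019970.15, plus strand). Its normalised counts were 18259 and 23304 in Tbx1cko replicates 1 and 2, against 20969, 24937 and 20265 in control replicates 1 to 3. The groups overlapped throughout. The log2 difference was -0.09 (SE 0.196, adjusted p = 0.852) and its 95% interval, -0.58 to 0.40, was narrower than that of any other member tested. Without control replicate 2 it was 0.00, with an interval from -0.35 to 0.35.

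Dusp1, a phosphatase gene that shuts off MAP kinases, answers glucocorticoids but also growth factors and stress within minutes. It occupies bases 26505590 to 26562128 of chromosome 17 (ENSMUSG00000024190.7, minus strand). It had 17821 and 19615 normalised counts in Tbx1cko replicates 1 and 2, against 24459, 30778 and 19054 in control replicates 1 to 3. Control replicate 3 lay between the Tbx1cko libraries, so the groups overlapped. The log2 difference was -0.38 (SE 0.243, 95% interval -0.99 to 0.23, adjusted p = 0.762) and -0.21 without control replicate 2. Immediate early genes and genes induced by cell dissociation were set beside it as a list of 26, Dusp1 not among them. In limma 0 of the 26 passed, and DESeq2 without control replicate 2 called 4, where 0.888% of all genes with an adjusted p were called. A negative difference was seen in 25 of the 26, against 6831 of the 14339 genes tested, and 22 of the 26 lay below all controls, against 13.9% of all genes tested. Their summed level was 326329 to 371575 in Tbx1cko and 408967 to 762204 in controls. Their median difference was -0.67, against 0.03 over all genes tested. It was -0.43 without control replicate 2, -0.42 after GC correction and -0.34 with both, and the median GC content of the list was 54.6%, against 49.7% for all genes tested. Hspa1b, a heat-inducible HSP70 gene, stood at 3451 and 3488 normalised counts in Tbx1cko replicates 1 and 2, against 18029, 18867 and 6046 in control replicates 1 to 3. Its neighbour Hspa1a, a near-identical copy whose reads may be split between the pair, had 1789 and 1974 in Tbx1cko, against 9449, 10666 and 2850 in controls. The immediate early transcription factor gene Egr3 had a log2 difference of -1.29 and Fosl1, an AP-1 subunit gene, of -0.83. Both lay below all controls, and the limma adjusted p of these 4 genes was 0.762. Their part in the Dusp1 value was not tested.

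The upstream sequences of Sgk1 and Dusp1 are shown because they hold a full element. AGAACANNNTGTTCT, the full glucocorticoid response element, whose outer letters read the same on both strands, occurred in 1 of 15 windows of the 7 members with a RefSeq promoter, against 3 of 32851 windows of all genes (0.00913%). The match lies in 1 of 6 Sgk1 windows, chr10:21993640-21993889 on the plus strand, at 21993701 to 21993715, starting 189 bases before the start. TGACGTCA, the full cAMP response element, occurred in 2 of 15 windows, those of Dusp1 and Errfi1, against 1.55% of all windows. The Dusp1 sequence, chr17:26508520-26508722 on the minus strand, is given as far as the nearest annotated exon, and its element starts 143 bases before the start. Capitals mark AGAACA and TGACG on either strand, which the full elements contain.
Sgk1: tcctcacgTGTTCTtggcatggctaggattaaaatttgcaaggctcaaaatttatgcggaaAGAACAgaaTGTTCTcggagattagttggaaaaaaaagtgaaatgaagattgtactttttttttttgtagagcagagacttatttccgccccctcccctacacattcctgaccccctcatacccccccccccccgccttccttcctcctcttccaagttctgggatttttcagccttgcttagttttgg
Dusp1: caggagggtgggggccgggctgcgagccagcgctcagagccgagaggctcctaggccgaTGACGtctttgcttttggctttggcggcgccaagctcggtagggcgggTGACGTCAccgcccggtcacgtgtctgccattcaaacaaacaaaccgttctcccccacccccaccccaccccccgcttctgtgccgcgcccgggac
The short motifs alone were common, with AGAACA in 16.1% and TGACG in 17.8% of all windows, against 4 and 5 of the 15. A match is a description of the letters, not a site of binding. Sgk1, which held the full receptor element in 1 of its 6 windows, had a log2 difference of -0.09 with all libraries. That difference was 0.00 without control replicate 2, and the part of the element in these values was not tested.

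Errfi1 encodes MIG6, an inhibitor of the EGF receptor. It occupies bases 150853919 to 150868892 of chromosome 4 (ENSMUSG00000028967.10, plus strand). Its normalised counts were 3339 and 4067 in Tbx1cko replicates 1 and 2, against 5471, 3085 and 4968 in control replicates 1 to 3. Control replicate 2 was the lowest of all libraries, and the other 2 controls were the highest. The log2 difference was -0.25 (SE 0.302, adjusted p = 0.770) with all libraries and -0.50 (SE 0.133, 95% interval -0.79 to -0.21) without control replicate 2, where the adjusted p was 0.337 in limma and 0.0726 in DESeq2. Over all alternatives the adjusted p ran from 0.0726 to 0.996, so Errfi1 did not pass under any of those run.

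Ddit4 encodes REDD1, an inhibitor of mTORC1 that glucocorticoids, hypoxia and DNA damage induce. It occupies bases 59949669 to 59951834 of chromosome 10 (ENSMUSG00000020108.4, minus strand). It had 2863 and 3615 normalised counts in Tbx1cko replicates 1 and 2, against 3060, 4949 and 2524 in control replicates 1 to 3. Control replicate 2 was the highest library, at 1.77 times the mean of the other controls, and at 57.9% GC the gene was the member richest in GC. The log2 difference turned from -0.07 (SE 0.333, adjusted p = 0.939) to 0.21 without that library (95% interval -0.11 to 0.53) and was 0.26 after GC correction.

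**Figure D2:**
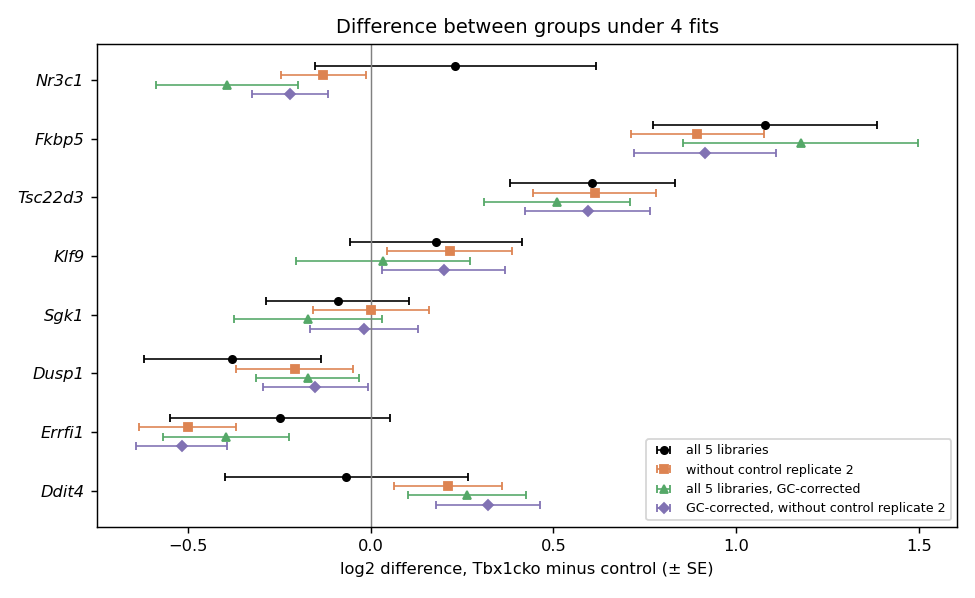
Log2 difference between Tbx1cko and control (x axis, Tbx1cko minus control, bars ± SE) for the 8 genes (rows) in 4 limma fits, with all libraries or without control replicate 2, each before and after GC correction. Tsc22d3 and Klf9, and Fkbp5, which was chosen for its high Tbx1cko values, stay above 0 in all 4. Dusp1 and Errfi1 stay below it. Nr3c1 and Ddit4 change sign, and Sgk1, otherwise negative, is at 0.001 without control replicate 2.

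Per kilobase of exon the 8 transcripts spanned more than an order of magnitude. In Tbx1cko, Dusp1 had the highest level, at 5653 ± 383 normalised counts per kb (SD, n = 2), and Fkbp5 the lowest, at 265 ± 63.4. In controls Dusp1 had 7479 ± 1772 and Fkbp5 127 ± 34.6 (SD, n = 3). Between them in Tbx1cko came Sgk1 with 4239 ± 728, Ddit4 with 1845 ± 303, Tsc22d3 with 1046 ± 292, Errfi1 with 1034 ± 144, Klf9 with 487 ± 134 and Nr3c1 with 350 ± 16.3 normalised counts per kb. The neighbours Tsc22d3 and Errfi1 overlapped there. In controls Errfi1, at 1259 ± 351, stood above Tsc22d3, at 673 ± 6.38, without overlap, and Ddit4 and Errfi1 were the neighbours that overlapped. Averaged over all libraries, Dusp1 and Sgk1 lay above 99.5% and 99.1% of the tested genes in level per kb, and Fkbp5 above 70.2%.

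**Figure D3:**
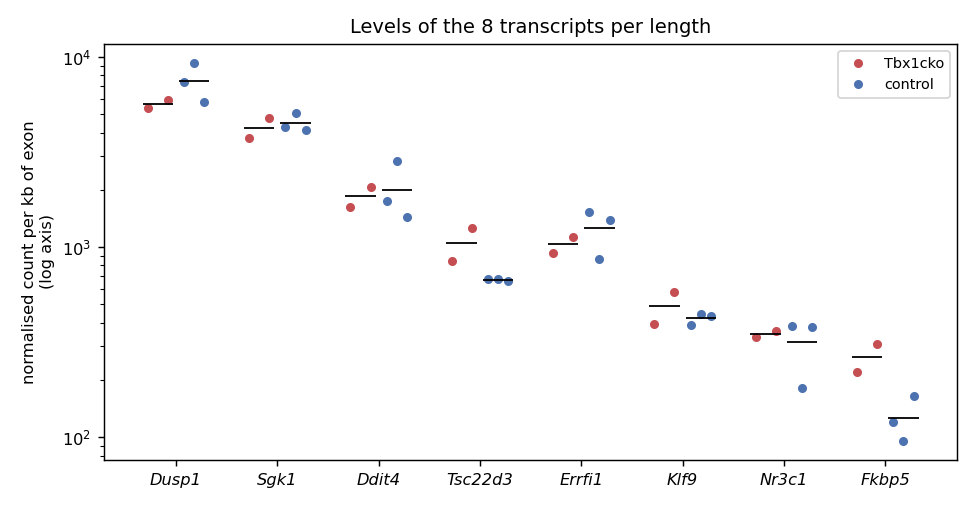
Normalised count per kb of exon (y axis, log scale) of the 8 genes in Tbx1cko libraries (red) and control libraries (blue), with group means as lines, ordered by the Tbx1cko mean. Dusp1 and Sgk1 lead in both groups and Fkbp5 is lowest in both.

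The Tbx1cko libraries differed from each other in a common direction across the members. All 8 genes had a higher value in Tbx1cko replicate 2 than in replicate 1, where 7164 of 14338 tested genes did. The ratio ran from 1.07 for Nr3c1 to 1.49 for Tsc22d3, with 1.48 for Klf9 and 1.41 for Fkbp5, inside the range of 0.675 to 1.57 that held the middle 90% of genes. Of all 5 libraries, Tbx1cko replicate 2 was the highest for 3 of the 8 members, Fkbp5, Tsc22d3 and Klf9. Fkbp5 was chosen for its high Tbx1cko values, so this count carries that choice and nothing is read from it. Tbx1cko replicate 2 was also the highest for 19.8% of all genes tested and for 11 of 37 other glucocorticoid-induced genes (29.7%). Zbtb16, a glucocorticoid-induced zinc finger gene named here after its values were seen, had 984 normalised counts in that library, against 159 in Tbx1cko replicate 1 and 104 to 252 in controls.

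Clock genes set the same library apart. Of 18 circadian genes 10 were highest in Tbx1cko replicate 2, where 19.8% of all genes tested were. The clock output gene Dbp had 329 normalised counts there, against 56.7 in Tbx1cko replicate 1 and 35.8 to 118 in controls. Nr1d1, which encodes the repressor REV-ERB-alpha, had 1864 there, against 448 in Tbx1cko replicate 1 and 548 to 820 in controls, and the activator gene Arntl had 252 there, against 518 in Tbx1cko replicate 1 and 524 to 717 in controls. Tef had 2239 and Per2 998 in Tbx1cko replicate 2, against 651 and 281 in replicate 1. Dbp, Nr1d1, Tef and Per2 were named after their values were seen. The clock values moved with Fkbp5, Tsc22d3 and Klf9 in that library, and their part in those values was not tested.

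Of the 18 clock genes 0 passed the limma threshold, 11 had a positive and 7 a negative log2 difference, and the median was 0.26, against 0.03 over all genes tested. The median was -0.27 without Tbx1cko replicate 2. After Arntl, the smallest unadjusted p-values belonged to Npas2, a partner of the Arntl product, to the repressor gene Bhlhe40 and to Nfil3, a repressor that opposes the Dbp product. Their log2 differences were -1.29, -0.33 and -0.31, each with a limma adjusted p of 0.762. Npas2 had 39.3 and 18.3 normalised counts in Tbx1cko replicates 1 and 2, against 38.4, 139.8 and 56.5 in control replicates 1 to 3, and its difference was -0.77 without control replicate 2. Per1, which the receptor also induces directly, had 4980 and 6427 normalised counts in Tbx1cko replicates 1 and 2, against 5327, 8156 and 4732 in control replicates 1 to 3. Its groups overlapped, and Per1 was named after its values were seen.

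**Figure D4:**
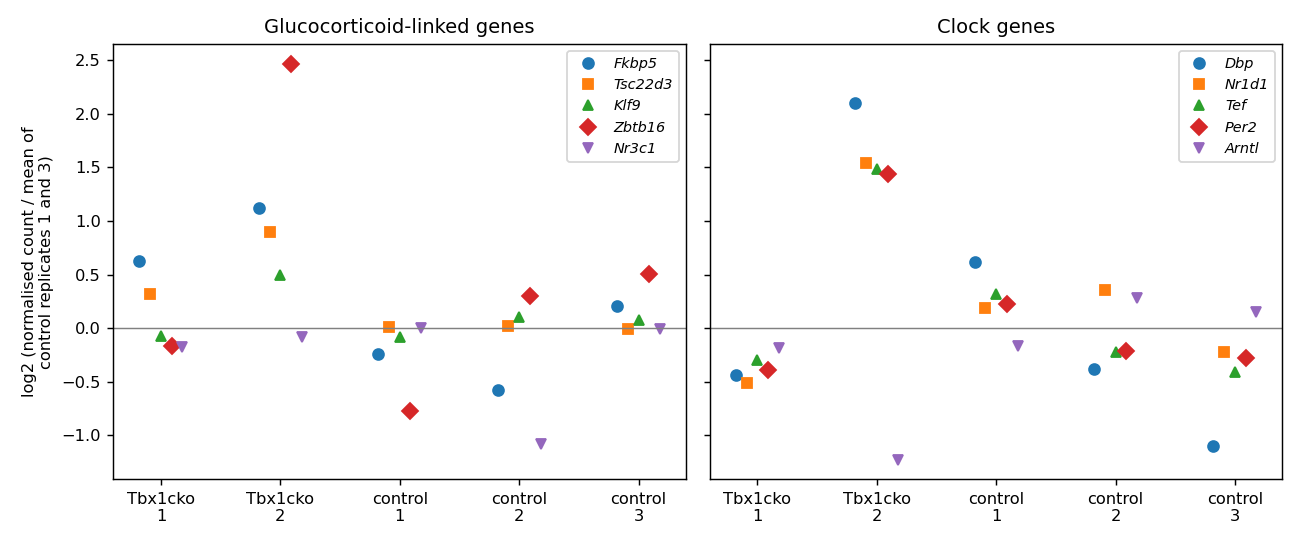
Log2 ratio of each library's normalised count to the mean of control replicates 1 and 3 (y axis) for 5 glucocorticoid-linked genes (left) and 5 clock genes (right), with Tbx1cko libraries left of control libraries. Tbx1cko replicate 2 is the highest library for Fkbp5, Tsc22d3, Klf9, Zbtb16, Dbp, Nr1d1, Tef and Per2 and the lowest for Arntl.

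The chaperone machinery that holds the receptor showed no common direction with all libraries. Of 14 chaperone and co-chaperone genes 7 had a positive and 7 a negative log2 difference, 0 passed, and the median was 0.10. Without control replicate 2 the split was 5 and 9, at a median of -0.11, and 0 passed in limma. In that setting 2 lay above and 4 below the controls (14.3% and 28.6%, against 19.7% and 17.8% of all genes tested). Fkbp4, which encodes the co-chaperone that competes with the Fkbp5 product and favours transport of the receptor, had 1548 and 1206 normalised counts in Tbx1cko replicates 1 and 2, against 1750, 2840 and 1601 in control replicates 1 to 3. It lay below all controls, with a log2 difference of -0.55 (limma adjusted p = 0.762), or -0.29 without control replicate 2. Within each library the ratio of Fkbp5 to Fkbp4 per kb was 0.398 and 0.718 in Tbx1cko and 0.193, 0.0939 and 0.286 in control replicates 1 to 3, a comparison that carries the choice of Fkbp5 with it. Hsp90ab1, the main constitutive HSP90 gene, had 34074 and 30648 normalised counts in Tbx1cko and 39501, 42714 and 36443 in controls, a log2 difference of -0.29. Dnajb1, a heat-inducible co-chaperone gene, had 1919 and 2453 in Tbx1cko and 4112, 5515 and 2597 in controls, and Ppid, a cyclophilin gene of the complex, 1134 and 1046 in Tbx1cko and 859, 261 and 969 in controls. All 3 had a limma adjusted p of 0.762.

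Of 6 tested genes that set how much hormone reaches the receptor, 0 passed. With all libraries 1 had a positive and 5 a negative difference, at a median of -0.18, and without control replicate 2 the split was 3 and 3, at a median of -0.10. The median was 0.10 once Tbx1cko replicate 1 was left out. Of the 6, 1 lay below all controls, where 13.9% of all genes tested did. Hsd11b1, the enzyme that regenerates active glucocorticoid inside cells, had 42.1 and 36.7 normalised counts in Tbx1cko and 49.7, 49.7 and 54.6 in controls, below all controls at a log2 difference of -0.38 (adjusted p = 0.762). Hsd11b2, the inactivating enzyme, had only 6.40 to 13.6 normalised counts in any library. The mineralocorticoid receptor gene Nr3c2 averaged 141 ± 59.1 in Tbx1cko (SD, n = 2) and 183 ± 19.4 in controls (SD, n = 3), and the efflux pump gene Abcb1b 672 and 700.1 in Tbx1cko and 688, 507 and 661 in controls. Among 10 nuclear receptor coregulator genes 0 passed, 3 had a positive and 7 a negative difference, with a median of -0.14. Over all genes tested 7508 were positive and 6831 negative. Without control replicate 2 the coregulator split was 1 and 9, at a median of -0.16, against 7645 and 6694 of all genes tested. The coactivator genes Ncoa3 and Ncoa1 had log2 differences of -0.33 and 0.28, and Ep300, an acetyltransferase gene, -0.19, each with a limma adjusted p of 0.762. The Ncoa3 value was -0.17 without control replicate 2.

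Other genes that glucocorticoids are known to induce were split in direction. Of 37 tested, 19 had a positive and 18 a negative log2 difference, the median was 0.05 with and without control replicate 2, and 0 passed in limma. Without overlap, 5 lay above and 7 below all controls, shares of 13.5% and 18.9%, where 14.2% and 13.9% of all genes tested did so. Sult1a1, a sulphotransferase gene, had 1303 and 1641 normalised counts in Tbx1cko and 798, 916 and 1032 in controls, a log2 difference of 0.68 (limma adjusted p = 0.762, and 0.0324 by DESeq2 without control replicate 2). Dusp4, a nuclear MAP kinase phosphatase gene, had 133 and 170 in Tbx1cko and 217, 290 and 279 in controls, a log2 difference of -0.79. Nfkbia, which encodes the NF-kappaB inhibitor, had 11031 and 11319 in Tbx1cko and 14331, 16052 and 13190 in controls, a difference of -0.37. Zfp36, which encodes an mRNA-destabilising protein and is also an immediate early gene, had 37604 and 39687 in Tbx1cko and 56338, 69254 and 42542 in controls. The limma adjusted p was 0.762 for each of the last 3, and each lay below all controls.

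Inflammatory genes that the receptor is known to hold down were not lower as a group. Of 20 tested, 15 had a positive and 5 a negative log2 difference with all libraries, at a median of 0.46. Over all genes tested 7508 were positive and 6831 negative. Without control replicate 2 the split was 12 and 8, at a median of 0.14, and 0 passed in limma either way. With all libraries 6 lay above and 2 below all controls (30% and 10%, against 14.2% and 13.9% of all genes tested). Without control replicate 2 these counts were 6 and 6 (30% each, against 19.7% and 17.8%). Tnf had 1586 and 1238 normalised counts in Tbx1cko and 702, 846 and 1041 in controls, above all controls, and Icam1, the leukocyte adhesion molecule of endothelium, had 7072 and 8926 in Tbx1cko and 11939, 15027 and 10714 in controls, below all of them. The cytokine subunit gene Il23a had 32.9 and 28.5 in Tbx1cko and 5.65, 9.20 and 4.70 in controls, a log2 difference of 2.12 on few reads, and Csf3, the neutrophil growth factor gene, had 202 and 239 in Tbx1cko and 496, 311 and 303 in controls. The limma adjusted p of these 4 was 0.762. Sele and Il6, named after their values were seen, were the 2 of the 20 that DESeq2 called without control replicate 2, where 0.888% of all genes with an adjusted p were called, at DESeq2 log2 differences of -0.87 (adjusted p = 0.0025) and -0.77 (adjusted p = 0.0224). Sele, which encodes the endothelial adhesion molecule E-selectin, had 3166 and 4877 normalised counts in Tbx1cko, against 7569, 3045 and 6970 in controls. Il6, a cytokine gene, had 1745 and 2191 in Tbx1cko, against 3991, 132 and 2634 in controls. In both, control replicate 2 lay below the Tbx1cko libraries and the other controls above them. Summed markers of other cells lay apart beside these lists. Of 8 neutrophil markers 6 were present, with a summed level of 1328 to 1363 in Tbx1cko and 591 to 958 in controls. The platelet markers (8 of 8) summed to 4704 to 5290 in Tbx1cko and 2310 to 3967 in controls. By gene the platelet markers were mixed, with 6 positive and 2 negative log2 differences. Of these 8, 2 lay above and 1 below all controls, where 14.2% and 13.9% of all genes tested did. The mural cell markers (10 of 10) summed to 38242 to 40553 in Tbx1cko and 47108 to 59716 in controls. Leukocytes carry Fkbp5 and Tsc22d3 too, and the part of cell composition in the values of the 8 genes was not tested.

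**Figure D5:**
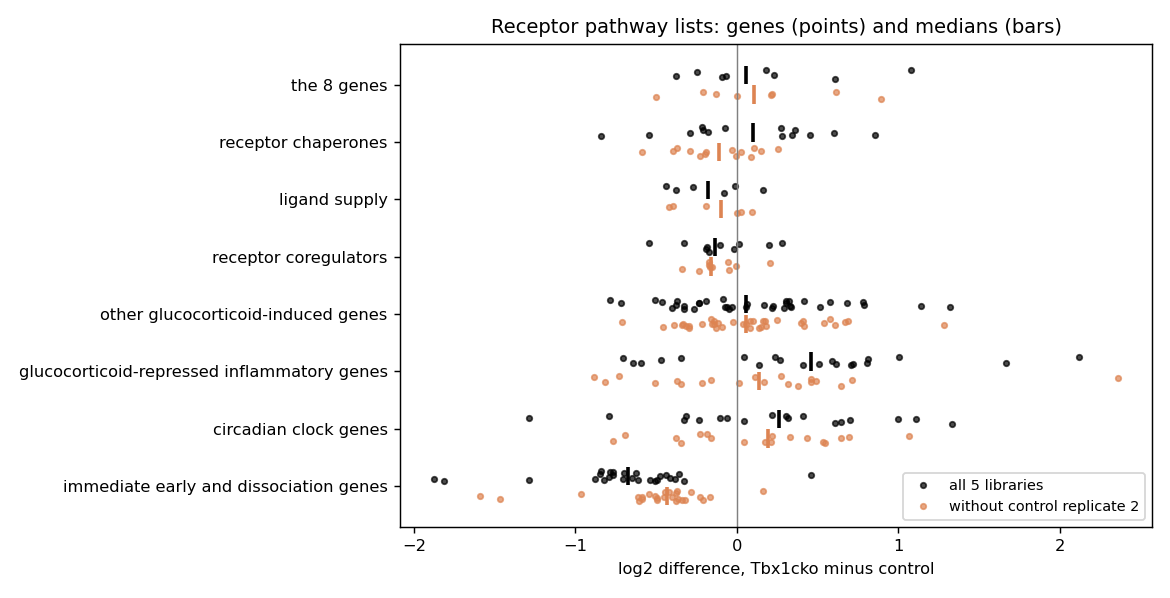
Log2 difference (x axis, Tbx1cko minus control) of the 8 genes and of the genes of 7 lists (rows), with all libraries (black) and without control replicate 2 (orange); points are genes and bars medians. The other induced genes centre on 0.05 in both fits, and the immediate early genes lie almost wholly below 0.

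The transcripts with the profile most like Fkbp5 were found by the root mean square distance between log2 profiles over the 5 libraries, each centred on its own mean, among 11629 other genes. They were Cd300lf, a myeloid receptor gene, at 0.150, the fucosidase gene Fuca2 at 0.150, Fam117b at 0.157, Lpl, the lipoprotein lipase gene, at 0.163, and Slc40a1, which encodes the iron exporter ferroportin, at 0.165, where the median distance was 0.681. Lpl had 6735 and 12754 normalised counts in Tbx1cko replicates 1 and 2, against 5003, 3312 and 5993 in control replicates 1 to 3. Cd300lf had 408 and 547 in Tbx1cko, against 236, 216 and 275 in controls. Both resemble Fkbp5 in having control replicate 2 lowest and Tbx1cko replicate 2 highest, a likeness that the ranking by distance selects for. The Fkbp5 profile holds the values that chose the gene, so nothing is read from this likeness. Among the members the nearest to Fkbp5 was Tsc22d3, at 0.346 and rank 230, and the farthest was Dusp1, at 0.860. These distances describe 5 libraries and carry no test.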

How the data were processed

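The authors deposited 1 table of 17638 genes by symbol. The submitters' processing notes name STAR 2.5.2b, DESeq, DESeq2 1.20.0 and R 3.5.1, with build GRCm38 (mm10). For the read counter and its strand setting, the sources used here name none, so overlapping and antisense genes may share reads. Each deposited value is a signal, the reads of a gene divided by a size factor. In all, 100% of values were whole multiples of 1 read within 0.01.

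Genes with a mean of at least 10 (14339) were tested with limma 3.58.1 (R 4.3.3, trended prior, 2-sided, Benjamini-Hochberg over all genes, threshold 0.05) on log2(normalised count + 1), which understates changes of low genes. On recovered reads edgeR 4.0.16, DESeq2 1.42.0 and voom were alternatives. GC correction subtracted a loess (span 0.3) of each library's deviation on the GC percent of the longest transcript. Exon lengths, GC and positions came from GENCODE M21 by symbol (16771 matched). In simulated counts with the spread of all 5 libraries limma called 0% of changes of log2 1 and 2. Without control replicate 2 it called 68% and 89%, with 10 unchanged genes called. The simulation gave each gene the same spread in every library, independent of other genes. In the data control replicate 2 deviated with GC content, so these shares do not give the power of the fits. Motifs were searched in the 250 bases before each RefSeq start, and the cAMP element was added after the data were seen. Members and lists were chosen with earlier results of these data known. From each pathway list the 4 genes with the smallest unadjusted p were named, except 1 that is not reported here. Summed T cell, B cell, fibroblast, cardiomyocyte and erythroid markers overlapped between the groups. Without control replicate 2 the cardiomyocyte sums (7269 to 8399 in Tbx1cko, 6014 to 6716 in controls) and the T cell sums (327 to 363 in Tbx1cko, 385 to 435 in controls) did not.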

Additional observations from a re-analysis of the deposited data

How the results depend on the processing

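Genes called by limma numbered 0 with all libraries (250 at an unadjusted p under 0.05), 0 to 3 when a library was left out, 4 by DESeq2, 78 by DESeq2 and 1 by edgeR without control replicate 2, and 3 with the replicate number as a block. The block changed no other call. Its differences for the members equal those without control replicate 3, so it is not a separate check of them. Correlations of deviations between libraries of the same number were -0.06 for number 1 and -0.05 for number 2. With 2 Tbx1cko libraries the deviations of 1 mirror those of the other, so these correlations cannot decide whether replicate numbers pair the samples. Tsc22d3, Dusp1 and Errfi1 kept their direction under all 19 alternatives, from 0.32 to 0.90, -0.55 to -0.15 and -0.52 to -0.09. Fkbp5 ran from 0.83 to 1.33, but it was chosen for its high Tbx1cko values, so nothing is read from its direction. Reversed values were, for Nr3c1, -0.14 by DESeq2 and by edgeR without control replicate 2, -0.39 after GC correction and -0.22 after it without that library, and -0.13 to 0.41 with a library left out; for Sgk1, 0.076 with quantile normalisation and -0.27 to 0.085 with a library left out, and 0.00 without control replicate 2; for Klf9, -0.11 to 0.46 with a library left out, the lowest without Tbx1cko replicate 2; and for Ddit4, 0.20 by DESeq2 and by edgeR without control replicate 2, 0.26 and 0.32 after GC correction with and without that library, and -0.27 to 0.21 with a library left out. List medians moved beyond the spread between replicates for the chaperones after GC correction (-0.21), ligand supply with quantile normalisation (-0.34), and the repressed inflammatory genes by DESeq2 (0.076), edgeR (0.075) and GC correction (0.11) without control replicate 2, and GC correction of all libraries (0.076). With a library left out, ranges were -0.25 to 0.096 for ligand supply, -0.19 to 0.031 for coregulators, 0.14 to 0.63 for the repressed genes, -0.27 to 0.63 for clock genes. The cause was not tested. The number of libraries, 2 and 3, limits the precision of each value.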
